A study of Mus musculus with 16 samples.

Results

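The lipid-associated macrophage genes are 10 genes that mark macrophages loaded with lipid in fatty and tumor-bearing tissue: Cd36, Gpnmb, Trem2, Apoe, Lpl, Fabp4, Fabp5, Lgals3, Plin2 and Cd9. They were taken by name, 10 of the 19822 genes kept in these tables. The members were chosen by name and selected on measured values, namely earlier results of these data that included their UMI levels in macrophages of both models, so that difference is given here as a description and no test is attached to it. The assay was Drop-seq, in which barcoded beads capture single cells in droplets and the 3′ ends of transcripts are counted as unique molecular identifiers (UMIs). The cells were live, dapi-negative singlets sorted from end-stage mammary tumors of WB1P mice (WapCre;Brca1F/F;Trp53F/F) and WB1P-Myc mice, which carry the same alleles and a Col1a1 locus with a Cre-activated Myc and luciferase construct. All were untreated, and Cre was driven by the Wap promoter, which is active in mammary epithelium. The macrophages, vessels and fibroblasts of both models are therefore taken as host cells without the deletions, which was not checked here. The 4 droplet fractions of 1 suspension per model were sequenced, and each model is therefore 1 sample without a replicate check. Each model stands for a pair of mice, but which mouse a fraction came from is not stated. Fractions are therefore not replicates of a model, whether they differ through handling or through the mice in them cannot be told apart, and the intervals below are exact 95% intervals that cover counting error only.

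Macrophages that take up lipoproteins, dead cells and their debris have to break down, store and export the lipid. CD36 and the receptor TREM2 sit at the cell surface and bind lipids, lipoprotein lipase (Lpl) releases fatty acids from lipoproteins, the fatty acid binding proteins FABP4 and FABP5 carry them in the cytosol, perilipin 2 (Plin2) coats the droplets in which they are stored, and apolipoprotein E (Apoe) carries cholesterol out. Glycoprotein NMB (Gpnmb), galectin 3 (Lgals3) and the tetraspanin CD9 act at lysosomes, damaged membranes and the cell surface. Several of these genes are also used outside macrophages, since capillary endothelium takes up fatty acids with Cd36 and Fabp4 and adipocytes and fibroblasts make Lpl.

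In GRCm38 (GENCODE annotation) most members lie far from each other. This holds for Cd36 (chr5:17781690-17888801, minus strand), Gpnmb (chr6:49036546-49070929, plus strand), Trem2 (chr17:48346401-48354147, plus strand) and Apoe (chr7:19696109-19699188, minus strand). It also holds for Lpl (chr8:68880491-68907448, plus strand), Lgals3 (chr14:47367751-47386160, plus strand), Plin2 (chr4:86648386-86670060, minus strand) and Cd9 (chr6:125460266-125494791, minus strand, on the chromosome of Gpnmb but far from it). Fabp5 (chr3:10012548-10016607, plus strand) and Fabp4 (chr3:10204088-10208576, minus strand) are neighbors in a family cluster, 187480 bases apart. RefSeq promoter windows (GRCm38.p6, 250 bases before to 50 after a transcription start) matched 7 members in 9 windows. Fabp4, Fabp5 and Lpl had no entry. The windows are shown for the members that were higher in every WB1P-Myc fraction than in every WB1P fraction of the macrophage-like cells (below) and that have an entry, from 250 bases before the start to 20 after it, on the strand of the gene. Capitals mark matches to 4 motifs searched on both strands: the E-box CACGTG and the M-box TCATGTG, bound by the MITF and TFE family of lysosomal regulators, the AP-1 site TGANTCA, and the direct repeat 1 element, bound by nuclear receptors of fatty acids.
Gpnmb, chr6:49036268-49036537, plus strand: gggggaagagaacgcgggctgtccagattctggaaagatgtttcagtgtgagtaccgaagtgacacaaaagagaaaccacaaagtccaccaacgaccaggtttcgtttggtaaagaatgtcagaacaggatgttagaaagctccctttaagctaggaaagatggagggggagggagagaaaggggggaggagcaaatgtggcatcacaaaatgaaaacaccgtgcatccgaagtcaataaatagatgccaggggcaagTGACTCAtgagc
Trem2, chr17:48346151-48346420, plus strand: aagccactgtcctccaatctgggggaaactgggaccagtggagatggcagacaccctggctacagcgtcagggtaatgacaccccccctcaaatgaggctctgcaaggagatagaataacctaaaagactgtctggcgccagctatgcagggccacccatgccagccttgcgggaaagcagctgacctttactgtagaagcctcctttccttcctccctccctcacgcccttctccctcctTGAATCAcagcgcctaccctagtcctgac
Plin2, chr4:86670040-86670309, minus strand: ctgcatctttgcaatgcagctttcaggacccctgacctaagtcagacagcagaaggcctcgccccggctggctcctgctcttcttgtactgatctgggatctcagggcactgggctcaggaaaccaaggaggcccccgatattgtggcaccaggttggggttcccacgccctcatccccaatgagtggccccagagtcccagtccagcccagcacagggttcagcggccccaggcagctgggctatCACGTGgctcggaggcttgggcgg
Cd36, chr5:17835877-17836146, minus strand, a start inside the span of the gene: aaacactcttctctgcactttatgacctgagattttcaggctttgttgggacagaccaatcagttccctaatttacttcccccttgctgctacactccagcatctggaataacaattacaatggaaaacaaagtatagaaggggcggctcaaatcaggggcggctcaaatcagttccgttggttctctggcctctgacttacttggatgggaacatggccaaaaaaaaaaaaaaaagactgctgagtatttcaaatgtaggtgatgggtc
The Gpnmb window holds TGACTCA beginning 8 bases after the start, and the Trem2 window holds TGAATCA beginning 9 bases before it. The AP-1 motif was found in 2565 of all 32851 promoter windows of 300 bases, 7.81%. The Plin2 window holds CACGTG 4 bases before the start, and 7.15% of all windows hold an E-box. The M-box (3.77% of all windows) and the direct repeat (0.0396%) matched none of the 9 windows of members, which says only that these letters are not in these stretches.

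After filtering, 1307 WB1P and 3491 WB1P-Myc cells were kept, from 256985 to 1918672 UMIs per WB1P fraction and 3814562 to 4960334 per WB1P-Myc fraction. WB1P fraction 1 stands apart with 65 cells, 2 of them macrophage-like. Cells were clustered without the 10 members, and clusters were named from markers that hold no member. The macrophage-like cells numbered 354 in WB1P (2, 106, 123 and 123 by fraction) and 645 in WB1P-Myc (163, 176, 141 and 165), with median depths of 1466.5 and 1522 UMIs. Of 10 macrophage markers, 9 had UMIs in both models and Adgre1 had none under that symbol. Their summed level was 12469 counts per 1000000 UMIs of the class (CPM) in WB1P and 11069 in WB1P-Myc. Myc was higher in the epithelial-like, Schwann-like and unnamed cells of WB1P-Myc, summed (138 to 178 CPM by fraction), than of WB1P (33.6 to 93.6). Among kept cells, 1 barcode was shared between libraries.

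In macrophage-like cells of WB1P-Myc, Cd36, the scavenger receptor for oxidized lipoproteins and fatty acids, stood at 282, 233, 193 and 213 CPM in fractions 1 to 4. In WB1P it stood at 0, 17.2, 0 and 13.4 CPM. The lowest WB1P-Myc fraction was thus more than 10 times the highest WB1P fraction, and pooled over fractions Cd36 was at 231 CPM (interval 206 to 259.6) against 9.60 CPM (interval 3.52 to 20.9), with a log2 ratio of 4.59 (3.45 to 6.05). Gpnmb, a lysosomal and surface glycoprotein, stood at 164, 94.5, 425 and 117 CPM in WB1P-Myc and at 0, 28.6, 13.4 and 8.91 CPM in WB1P. Its groups did not overlap either, but WB1P-Myc fraction 3 was far above the other 3. Of 247 Gpnmb UMIs in WB1P-Myc, 42.5% came from 5 cells, 4 of them in fraction 3, and 1 cell alone held 41. Pooled levels of Gpnmb were 197 and 16 CPM, with a log2 ratio of 3.62 (2.72 to 4.70). Without the 5 cells with most Gpnmb UMIs in each model, the levels were 115 and 4.90 CPM. Trem2, the lipid receptor that signals through Tyrobp, differed less. It stood at 459, 428, 349 and 515 CPM in WB1P-Myc and at 0, 263, 236 and 347 CPM in WB1P, so that the lowest WB1P-Myc fraction lay just above the highest WB1P fraction. The log2 ratio of Trem2 was 0.63 (0.38 to 0.88), with 548 UMIs in 286 cells of WB1P-Myc and 177 UMIs in 121 cells of WB1P. Cd9, a tetraspanin of exosomes and membrane domains, overlapped, with 397, 355, 389 and 395 CPM in WB1P-Myc and 0, 355, 473 and 405 CPM in WB1P, and its log2 ratio of -0.11 had an interval from -0.33 to 0.11.

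The genes for fatty acid release, transport and storage differed to unequal degrees. Lpl, the lipase of lipoprotein triglycerides, stood at 636, 479, 183 and 233 CPM in WB1P-Myc and at 0, 62.9, 71.4 and 120.2 CPM in WB1P. All WB1P-Myc fractions were above all WB1P fractions, although they differed among themselves by more than 3-fold. The pooled log2 ratio of Lpl was 2.18 (1.77 to 2.61), and 33.3% of the 490 Lpl UMIs of WB1P-Myc came from 5 cells. Fabp4, the fatty acid carrier of adipocytes and capillaries, was sparse in macrophage-like cells, with 18.6, 26.6, 39.9 and 92.7 CPM in WB1P-Myc and 0, 0, 22.3 and 13.4 CPM in WB1P. The groups overlapped, the log2 ratio was 1.75 (0.67 to 3.03), and it rested on 54 UMIs in 27 cells against 8 UMIs in 7 cells. Fabp5, the carrier of macrophages and epithelia, stood at 1032, 1335, 1262 and 1479.5 CPM in WB1P-Myc and at 0, 715, 740.4 and 601 CPM in WB1P, without overlap and with a log2 ratio of 0.90 (0.75 to 1.06). Plin2, the coat protein of lipid droplets, was even across the WB1P-Myc fractions. It stood at 831, 863, 814 and 838 CPM in WB1P-Myc and at 683, 537, 455 and 383 CPM in WB1P, where 683 CPM is the fraction of 2 cells. The log2 ratio of Plin2 was 0.89 (0.70 to 1.08), and 60.5% of WB1P-Myc cells and 42.9% of WB1P cells held a Plin2 UMI.

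The most abundant members hardly differed. Apoe, the apolipoprotein of cholesterol export, stood at 22181, 23243, 19165 and 24665 CPM in WB1P-Myc and at 12287, 18126, 19443 and 22985 CPM in WB1P. The fractions overlapped, and the log2 ratio of 0.13 (0.10 to 0.17) was close to the median of all genes. Lgals3, the galectin that marks damaged lysosomes, stood at 2139, 2024, 1889.9 and 2187 CPM in WB1P-Myc and at 3413, 2973, 2297 and 1808 CPM in WB1P. The WB1P values spread over the whole WB1P-Myc range, and the log2 ratio was -0.17 (-0.26 to -0.07). Without WB1P fraction 2 it was 0.0017.

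**Figure D1:**
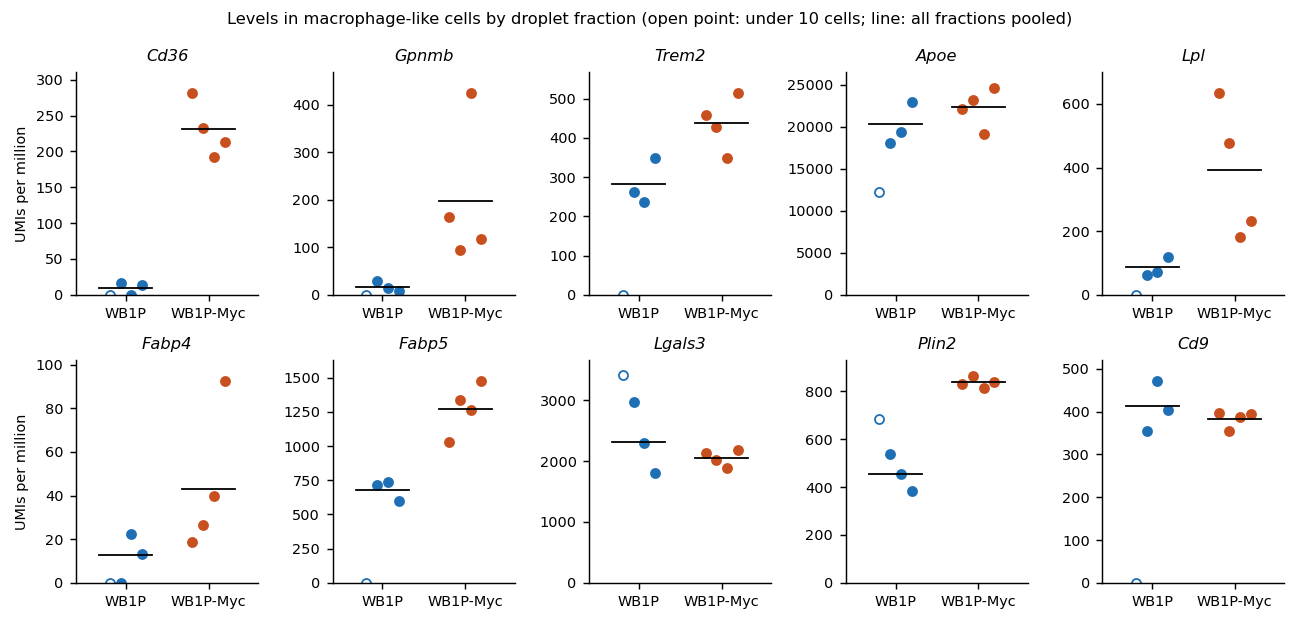
CPM of each member in macrophage-like cells, with 1 point per droplet fraction in the order 1 to 4, WB1P in blue and WB1P-Myc in orange, and a line for the 4 fractions pooled. All axes are linear and start at 0, and the open point is the WB1P fraction with 2 macrophage-like cells. Cd36, Gpnmb, Trem2, Lpl, Fabp5 and Plin2 do not overlap between the models, while Apoe, Fabp4, Lgals3 and Cd9 do.

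For these 6 members every WB1P-Myc fraction was above every WB1P fraction. Of all 5028 genes with at least 50 UMIs in macrophage-like cells, 12.0% showed this pattern, and 1.51% showed the opposite one, which no member did. WB1P fraction 1, with 2 macrophage-like cells, counts among these fractions. A gene at 0 there is never above a WB1P-Myc fraction, so for such a gene the pattern rests on WB1P fractions 2 to 4. Nor can a gene at 0 there show the opposite pattern. Cd36, Gpnmb, Trem2, Lpl, Fabp4, Fabp5 and Cd9 were at 0 there. Of the 6 members only Plin2 was above 0 in that fraction. Nothing can be read from the lack of members with the opposite pattern. A ratio of at least 2-fold in favor of WB1P-Myc was reached by 4 members (Cd36, Gpnmb, Lpl and Fabp4) and by 5.81% of all genes. For Fabp4 the log2 ratio was 0.46 with clusters weighted alike and -0.14 in a MiSeq run of the same fractions (both below). At least 2-fold lower in WB1P-Myc were 3.62% of all genes and 0 members. In the MiSeq run, with 100 and 97 macrophage-like cells, 26 genes were at least 2-fold higher and 48 lower. These are counts among the genes that reached 50 UMIs in that run, so they cannot be read beside the shares above. The median log2 ratio was 0.89 over the members and 0.14 over all genes. Since the list was made with such ratios known, nothing is read from its counts beyond the description.

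The macrophage-like cells of the models were not the same mixture. Subclustering gave 6 macrophage-like clusters, again made without the members. Cluster L1 was led by the MHC class II genes Cd74, H2-Aa and H2-Ab1 and by Ccr2, so that 1 monocyte marker and no macrophage marker was among its 10 top genes although 9 macrophage markers led it. Cluster L2 was led by Mmp12 and Arg1, L3 by Fcrls and Mpeg1 among others, L4 by Cbr2, Ccl8, F13a1 and Mrc1, and L5 by Bcl2a1 genes. Cluster L7 was led by Pf4, Ccl9 and Arg1, with C1qa, C1qb and C1qc not leading. Neither L2 nor L7 had a macrophage marker among its 10 top genes, and 7 and 5 macrophage markers led them. C1qa was at 309 CPM in L7, against 886 to 1905 CPM in the other clusters. WB1P and WB1P-Myc gave 180 and 180 cells to L1, 59 and 16 to L2, 22 and 183 to L3, 36 and 95 to L4, 49 and 8 to L5, and 8 and 163 to L7. In L3 and L7, cluster and model can therefore hardly be told apart.

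Members were spread unevenly over these clusters. The levels over both models depend on how many cells each model gave. Pooled so, Cd36 was at 378 CPM in L7, 205 in L3 and 145 in L4, against 10.1 in L1. Gpnmb was at 344 CPM in L3 and 153 in L7, against 8.05 in L1 and 0 in L5. Lpl was at 665 CPM in L7 and 363 in L3, against 80.5 in L1. L3 and L7 differed from each other in Apoe, which was at 37412 CPM in L3 and at 7654 in L7, the highest and the lowest of the 6 pooled values. In WB1P-Myc alone Apoe was lowest in L5, at 6331 CPM in 8 cells, and Cd36 was at 399 CPM in 16 cells of L2 and 386 CPM in L7. Trem2 was likewise highest in L3, at 668 CPM, against 203 to 362 CPM in the other clusters. In WB1P alone Trem2 was at 563 CPM in L3 and 531 in L4. Fabp5 was at 1849 CPM in L3, 1553 in L7 and 1395 in L2, and below 400 CPM in L1, L4 and L5. Lgals3 followed another order, with 5901 CPM in L2, between 1636 and 2329 in L1, L3, L5 and L7, and 674 in L4. Plin2 was at 1009 CPM in L2 and 966 in L3 and lowest in L5, at 264, while in WB1P alone it was at 544 CPM in L3 and 658 in L4. Cd9 was at 106 CPM in L4 and between 361 and 616 CPM elsewhere.

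Within a cluster the models could be set side by side where both gave cells. In L1, with 180 cells of each model, Cd36 and Gpnmb were near 0 in both (5 and 4 UMIs in all) and Lpl stood at 84.0 and 76.6 CPM in WB1P and WB1P-Myc, a log2 ratio of -0.13 (-1.12 to 0.83). In the same cluster Plin2 was at 367 and 536 CPM (0.55, 0.15 to 0.95), Lgals3 at 2044 and 1255 CPM (-0.70, -0.91 to -0.50) and Fabp5 at 455 and 302 CPM (-0.59, -1.04 to -0.15), and for all 3 the fractions overlapped. For Plin2 and Fabp5 the overlap came from WB1P fraction 1, with 2 cells. Without it Plin2 was at 322 to 411 CPM in WB1P and 476 to 627 in WB1P-Myc, and Fabp5 at 384.5 to 599 and 190.0 to 383.8 CPM. Of 1656 genes with at least 50 UMIs in L1, 4.23% were at least 2-fold higher in WB1P-Myc and 3.38% at least 2-fold lower, and none of the 6 members among them was called in either direction. All WB1P-Myc fractions were above all WB1P fractions for 6.34% of these genes and below them for 1.75%, again with 0 members when the fraction of 2 cells is counted. In L3 WB1P gave only 22 cells. Gpnmb was at 37.5 and 382 CPM (log2 ratio 3.35, 1.47 to 6.40), Lpl at 75.0 and 397 CPM (2.41, 1.02 to 4.30) and Plin2 at 544 and 1017 CPM (0.90, 0.36 to 1.5). Their fractions did not overlap, but narrowly for Gpnmb (0 to 149 and 164 to 913 CPM) and Lpl (0 to 132 and 135 to 565 CPM). The WB1P levels of Gpnmb and Lpl rest on 2 and 4 UMIs, and WB1P-Myc fraction 3 held 88 of 168 Gpnmb UMIs. The share of all genes without overlap was not counted in L3. Cd36 in L3 was at 56.3 and 223 CPM (1.98, 0.39 to 4.29), with overlap (0 to 149 and 74.6 to 355 CPM by fraction). Fabp5 in L3 was at 1669 and 1871 CPM (0.17, -0.15 to 0.50) and Trem2 at 563 and 681 CPM (0.28, -0.27 to 0.87), with overlap. In L4, Cd36 and Lpl were at 0 in 36 WB1P cells, 18 of them in fraction 4, and at 196 and 189 CPM in 95 WB1P-Myc cells. Against a floor of 3 counts over the WB1P cells these levels were 3.08-fold and 2.96-fold higher, with exact lower limits of 2.33-fold and 2.24-fold. For Cd36 the fractions overlapped, since WB1P-Myc fraction 2 was also at 0, and 15 of its 26 UMIs were in WB1P-Myc fraction 3. Other members went both ways in L4. Trem2 was at 531 CPM in WB1P and 302 in WB1P-Myc (-0.81, -1.57 to -0.03), with 21 of 25 WB1P UMIs in fraction 4. Apoe was at 17788 and 13787 CPM (-0.37, -0.49 to -0.25) and Lgals3 at 425 and 762 CPM (0.84, 0.14 to 1.62). For these 3 the fractions overlapped. In L2, Lpl was at 114 CPM (56.7 to 203) in 59 WB1P cells and 0 (up to 147) in 16 WB1P-Myc cells, which shows no direction, and Cd36 was at 0 and 399 CPM.

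Taking clusters L1, L3 and L4 alone and giving them the same weight in both models, which also leaves out L2, L5 and L7, left Gpnmb at a log2 ratio of 3.09, Cd36 at 2.41 and Lpl at 1.55. Under this weighting Plin2 was at 0.59, Fabp4 at 0.46, Cd9 at 0.16, Apoe at 0.09, Trem2 at 0.064, Fabp5 at -0.062 and Lgals3 at -0.17. Leaving out cluster L1 (174 and 465 cells) changed the ratios little, with 4.68 for Cd36, 3.45 for Gpnmb and 2.40 for Lpl.

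**Figure D2:**
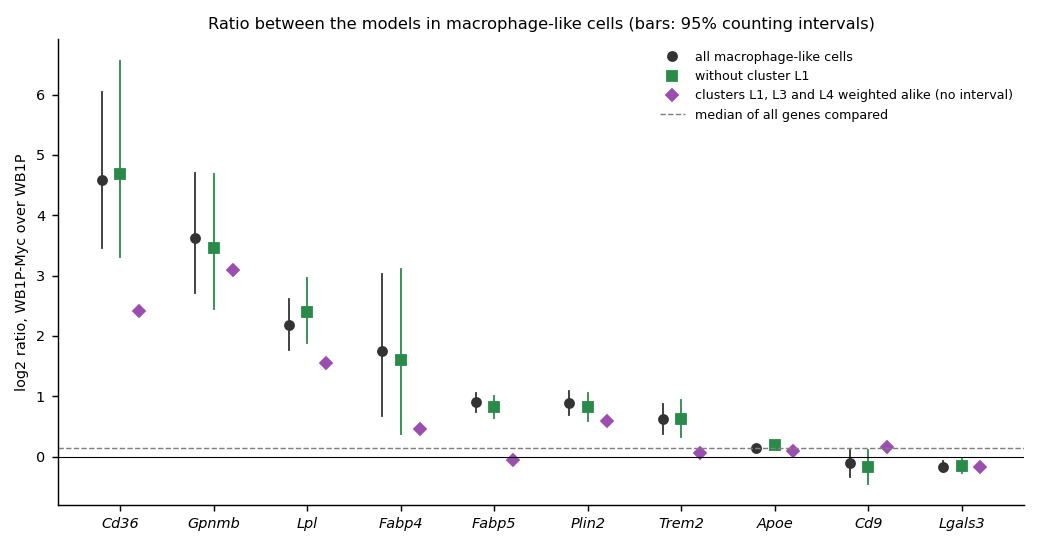
Log2 ratio of WB1P-Myc over WB1P for each member in all macrophage-like cells (circles), without cluster L1 (squares) and with clusters L1, L3 and L4 weighted alike (diamonds, without interval), with bars for 95% counting intervals. The dashed line is the median of all genes compared. Circles and squares nearly coincide, and the diamonds are lower for Cd36, Gpnmb, Trem2, Lpl, Fabp4, Fabp5 and Plin2.

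**Figure D3:**
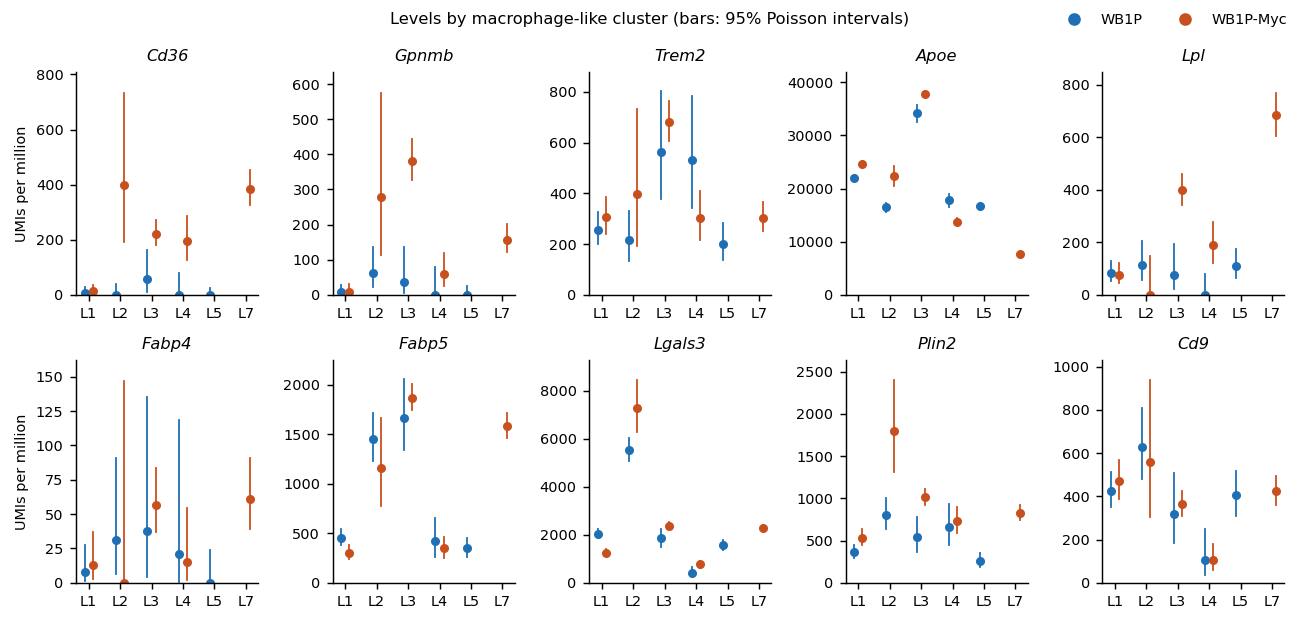
CPM of each member in the 6 macrophage-like clusters by model, with 95% Poisson intervals, on linear axes from 0. L5 of WB1P-Myc and L7 of WB1P, with 8 cells each, are not drawn. Apoe and Trem2 peak in L3, Cd36 and Lpl of WB1P-Myc are high in L7, and Lgals3 peaks in L2.

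A UMI of an epithelial or Schwann marker was found in 37.3% (32.2 to 42.6) of the WB1P and 37.5% (33.8 to 41.4) of the WB1P-Myc barcodes. The 12 epithelial markers summed to 294 CPM in WB1P (0 to 361 by fraction) and 164 CPM in WB1P-Myc (106 to 292), and the 9 Schwann markers to 14.4 and 222 CPM. Estimated from these markers, tumor cell RNA was 5.36% of macrophage-like UMIs in WB1P and 12.5% in WB1P-Myc, and with it subtracted the log2 ratios were 4.70 for Cd36, 3.73 for Gpnmb, 2.29 for Lpl, 0.74 for Trem2 and 0.081 for Cd9, whose sign turned. Epithelial-like and Schwann-like cells of WB1P-Myc held 7.01 and 2.00 CPM of Cd36, 3.64 and 17.8 CPM of Gpnmb and 24.4 and 4.90 CPM of Lpl, less than the macrophage-like cells at 231, 197 and 391 CPM. Of the 8 adipocyte markers only Car3, Retn and Plin1 are in the tables, and 0 and 1 UMI of them were found in macrophage-like cells of WB1P and WB1P-Myc. Endothelial markers summed to 20.8 and 39.9 CPM, with Cldn5 and Emcn at 0 in both models. Of 212 mast cell marker UMIs in macrophage-like cells of WB1P-Myc, 210 were in 2 barcodes, which held no UMI of Cd36, Gpnmb or Lpl.

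Members detected together in single macrophage-like cells were counted next. To compare cells at the same depth, every macrophage-like cell was thinned to 600 UMIs. At least 4 of the 10 members were detected in 51 of 354 WB1P cells, 14.4% (10.9 to 18.5). In WB1P-Myc this was so for 167 of 645 cells, 25.9% (22.6 to 29.5). By fraction the shares were 15.1%, 16.3% and 12.2% in WB1P fractions 2 to 4 and 25.2%, 24.4%, 28.4% and 26.1% in WB1P-Myc, without overlap. Over 20 draws of the thinning, the WB1P share ranged from 12.7% to 18.1% and the WB1P-Myc share from 23.1% to 29.8%. With all UMIs the shares were 45.5% and 60.6%. At least 6 members were found in 20 of 645 WB1P-Myc cells (3.10%) and in 0 of 354 WB1P cells, which allows a share of up to 0.847% by the limit of 3 counts and 1.04% by the exact interval. In cluster L1 the shares were 9.44% (5.60 to 14.7) and 10.0% (6.04 to 15.3). The highest shares were in L3, where WB1P had 45.5% (24.4 to 67.8) over 22 cells and WB1P-Myc had 40.4% (33.3 to 47.9) over 183. L2 had 30.5% (19.2 to 43.9) over 59 WB1P cells and 37.5% (15.2 to 64.6) over 16 WB1P-Myc cells, and L7 of WB1P-Myc had 33.1% (26.0 to 40.9). In other classes at least 4 members were rare, in 6.36% of endothelial-like cells, 1.29% of fibroblast-like cells, 0.704% of epithelial-like cells and 0.890% of Schwann-like cells over both models.

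**Figure D4:**
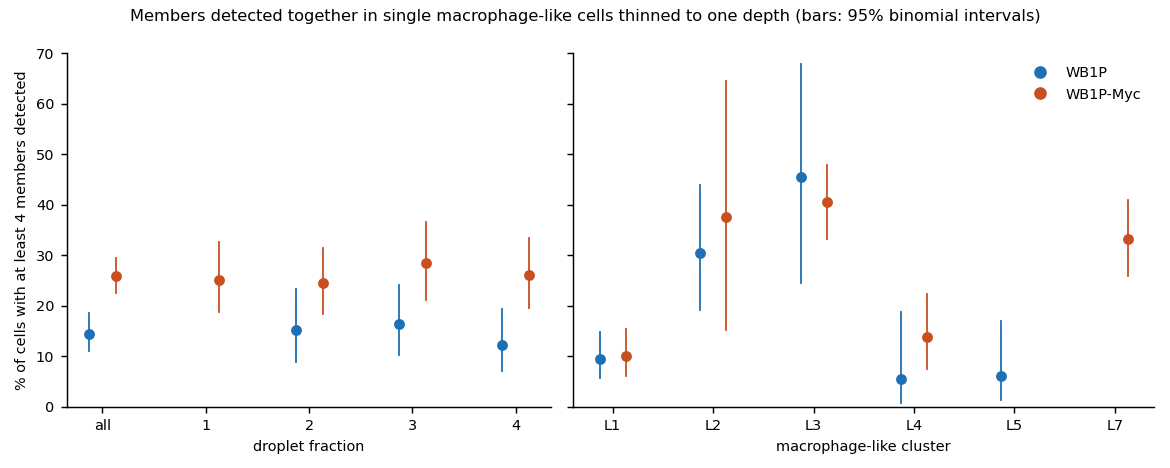
Share of macrophage-like cells with at least 4 of the 10 members detected after thinning to 600 UMIs, by fraction (left) and by cluster (right), with 95% binomial intervals. Fraction 1 of WB1P, L5 of WB1P-Myc and L7 of WB1P, with under 10 cells each, are not drawn. Every WB1P-Myc fraction lies above every WB1P fraction that is drawn, while the models coincide in L1 and both are high in L3.

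Pairs of members were set beside the product of their single shares, which is what independent detection gives, in mean counts over the 20 draws. In WB1P-Myc, 35 of the 45 pairs had a product of at least 5 cells, and 32 of the 35 were found together more often than the product, with a median of 1.16 times it (0.881 to 1.93). The highest were Gpnmb with Fabp5 (20.6 cells against 10.7), Cd36 with Fabp5 (27.9 against 16.5) and Cd36 with Plin2 (27.6 against 17.2). Apoe with Lpl was lowest, with 45.5 cells against 51.6. In WB1P, 17 pairs reached a product of 5 cells and 11 were above it, with a median of 1.03 times. Within single clusters with at least 50 cells of a model the medians lay between 0.993 and 1.09. Such excesses are small in sparse counts and are given as a description.

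Cells of WB1P-Myc in which Gpnmb was detected after thinning (33 of 645, median over the draws) differed from the remaining cells in several genes, of which those named here were chosen after their values were seen. They held 3191 CPM of Fabp5 against 1131 CPM in the remaining cells, 4262 against 1889 CPM of Lgals3, and 1457 against 788 CPM of Plin2. Of the lysosomal proteases, Ctsd (cathepsin D) was at 7908 against 3149 CPM and Ctsl (cathepsin L) at 4859 against 1007 CPM. Of the MHC class II genes they held 156 against 1185 CPM of Cd74 and 436 against 2116 CPM of H2-Aa. These cells were also deeper, with a median of 2370 against 1509.5 UMIs. Cells with Cd36 (51) held 1414 against 285 CPM of Lpl, 2633 against 1138 CPM of Fabp5 and 3167 against 1222 CPM of Pf4, a platelet factor gene of some macrophages, but less Apoe, 16658 against 22937 CPM. Cells with Lpl (57.5) held 681 against 175 CPM of Cd36 and also less Apoe, 14561 against 23229 CPM. These groups of cells also differed in cluster. Of the cells with Gpnmb, 18.3 on average over the draws were in L3 and 1.0 in L1, and of those with Cd36, 26.2 were in L7, which was led by Pf4 and had the lowest pooled Apoe. The differences are thus also differences between clusters. The draws thin the same cells of 1 sample, and the levels are given as a description.

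Other genes of lipid handling were taken from 4 lists, chosen like the members with earlier results known. Of 29 lysosome and phagocyte genes with at least 50 UMIs in macrophage-like cells, 6 were at least 2-fold higher in WB1P-Myc (5.81% of all genes) and 1 lower (3.62%). In all its fractions 11 were higher (12.0% of all genes) and 2, Ctsz and Mmp12, lower (1.51%), with a median log2 ratio of 0.48 against 0.14 for all genes. Here too a gene at 0 in WB1P fraction 1, with 2 macrophage-like cells, cannot count as lower, and that fraction does not keep it from counting as higher. Ctsb, a lysosomal cysteine protease, was at 2932 CPM in WB1P and 5953 in WB1P-Myc (log2 ratio 1.02, 0.95 to 1.10). Atp6v0d2, a subunit of the proton pump of lysosomes, was at 27.2 and 138 CPM (2.34, 1.62 to 3.16) and Ctsk at 54.4 and 232 CPM (2.09, 1.58 to 2.65), the former without overlap of the fractions. Psap, the precursor of lysosomal saposins, was at 2283 and 2938 CPM (0.36), again without overlap. The list did not move as 1 block, since Ctss was at 5597 and 5164 CPM (-0.12, -0.18 to -0.06) and Spp1, osteopontin, at 4889 and 2575 CPM (-0.93, -1.0 to -0.85). The clusters, which the models fill unequally, also differed in genes of this list. Over both models Ctsd was at 5722 CPM in L3 and 930 in L1. Mmp12 and Spp1 were highest in L2, at 5827 and 8888 CPM. The ratios of the lists were not taken within clusters, so model and cluster cannot be told apart in them.

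Of 28 genes of lipoprotein uptake, storage and efflux that were present, 17 had at least 50 UMIs in macrophage-like cells. Of these 17, 3 were at least 2-fold higher in WB1P-Myc (5.81% of all genes) and 1 lower (3.62%), with a median of 0.61 against 0.14 for all genes. In all its fractions 6 were higher (12.0% of all genes) and 1 lower (1.51%). Olr1, a receptor for oxidized lipoproteins like Cd36, was at 8.00 and 38.3 CPM (2.26, 0.94 to 3.95), and Lipa, the lysosomal lipase, at 242 and 475 CPM (0.97, 0.71 to 1.24), both without overlap of the fractions. Msr1, the scavenger receptor A, was at 912 and 792 CPM (-0.20, -0.35 to -0.05), and the cholesterol exporter Abca1 at 264 and 300 CPM (0.18, -0.08 to 0.46). Dgat1, an enzyme of triglyceride synthesis, was lower in every WB1P-Myc fraction, at 104 and 31.1 CPM (-1.74, -2.35 to -1.15). Hilpda, a droplet protein that inhibits lipolysis, was at 483 and 293 CPM (-0.72, -0.95 to -0.50). Of 16 transcription factors present, 6 had at least 50 UMIs in macrophage-like cells. Of these 6, 2 were at least 2-fold higher in WB1P-Myc (5.81% of all genes) and 0 lower (3.62%). In all its fractions 2 were higher (12.0%) and 0 lower (1.51%). Nr1h3 (LXRα), which responds to cholesterol, was at 6.40 and 41.5 CPM (2.70, 1.25 to 4.63) and Mitf at 17.6 and 41.5 CPM (1.24, 0.28 to 2.33), both without overlap. The WB1P level of Olr1 rests on 5 UMIs, and that of Nr1h3 is lower still. Cebpb was at 1302 and 724 CPM (-0.85, -0.99 to -0.71), Bhlhe40 at 122 and 79.0 CPM (-0.62) and Tfe3 at 41.6 and 47.1 CPM (0.18, -0.51 to 0.90). No gene of the capillary list reached 50 UMIs in macrophage-like cells, where Angptl4 had 41, Slc27a4 22, Cav1 18 and Slc27a3 4.

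Across cell classes the members fell into groups. Macrophage-like cells held 12.3% of all UMIs, but 94.8% of Trem2, 91.3% of Apoe, 70% of Gpnmb and 52.5% of Plin2 UMIs. Their level over that of all other cells was 7.02 on the log2 scale for Trem2, 6.22 for Apoe, 4.06 for Gpnmb, 2.98 for Plin2 and 1.96 for Lgals3. For Cd36 and Lpl it depended on the model, with -0.78 (-2.31 to 0.45) and -0.85 (-1.29 to -0.44) in WB1P and 3.80 (3.52 to 4.07) and 2.24 (2.08 to 2.40) in WB1P-Myc. Fabp5 was 0.80 higher than in other cells, and Cd9 (-0.61) and Fabp4 (-2.09) were lower. Free RNA of macrophages can add such UMIs to other cells. In epithelial-like cells, the UMIs of C1qa, C1qb and C1qc at the macrophage ratio correspond to 46.8% (WB1P) and 59.4% (WB1P-Myc) of the Apoe UMIs, but to 0.927% and 4.86% of those of Lgals3.

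**Figure D5:**
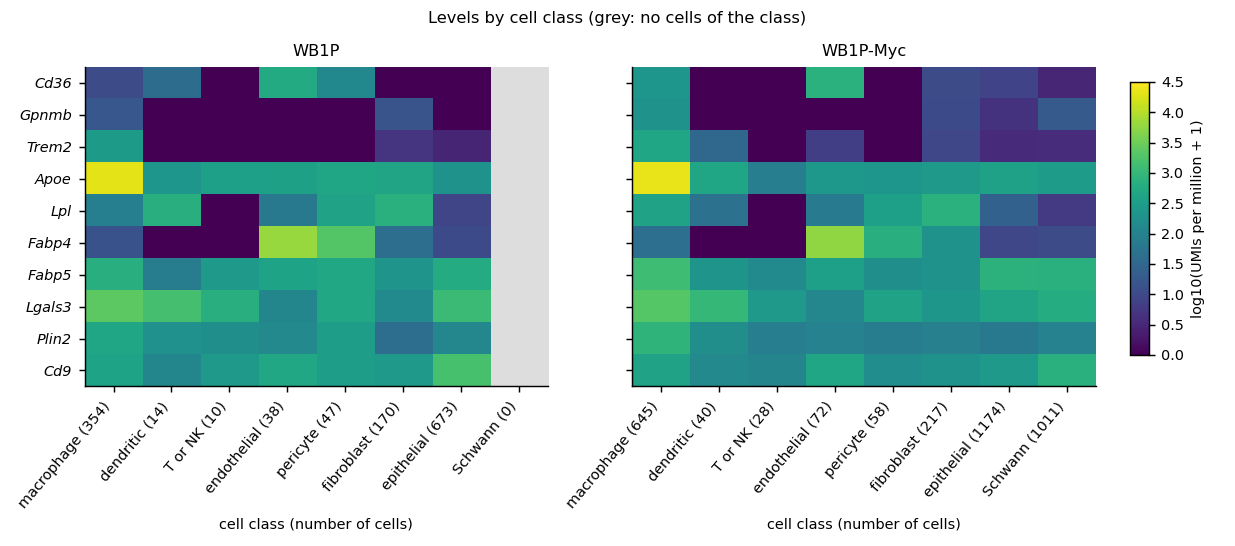
Log10 of CPM plus 1 of each member in 8 cell classes of WB1P (left) and WB1P-Myc (right), with the number of cells per class in parentheses and grey where a class has no cells. Apoe and Trem2 are high in macrophage-like cells alone of these classes, Fabp4 and Cd36 in endothelial-like cells, Lpl also in fibroblast-like cells, and Cd9 in WB1P epithelial-like cells.

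Endothelial-like cells were the other site of Cd36 and the main one of Fabp4. Fabp4 stood at 6394 CPM in 38 WB1P cells and 5657 CPM in 72 WB1P-Myc cells, from 2036 to 11119.6 CPM in WB1P fractions 2 to 4 and from 3070.2 to 8322 CPM in WB1P-Myc. Cd36 stood at 568 and 741 CPM (log2 ratio 0.38, -0.16 to 0.97). The fractions overlapped for both genes, in contrast to Cd36 in macrophage-like cells. Gpihbp1, which anchors lipoprotein lipase on capillaries, was at 1190.0 CPM in endothelial-like cells over both models and the fatty acid transport gene Cav1 at 663 CPM, whereas Lpl itself was at 64.9 and 74.1 CPM there. Lpl was instead high in fibroblast-like cells, at 704 and 746 CPM (0.08, -0.11 to 0.27), and within them in fibroblast cluster F1, at 2041 and 1420.5 CPM. Dendritic-like cells held Lpl at 651 CPM in WB1P (17 UMIs over 14 cells, with 12 UMIs from the 3 cells of fraction 2) and at 49.0 CPM in WB1P-Myc (3 UMIs over 40 cells), a log2 ratio of -3.73 (-6.15 to -1.94), with overlap of the fractions. Fabp4 in fibroblast-like cells was at 41.2 CPM in WB1P and 194 CPM in WB1P-Myc (2.23, 1.58 to 2.96), and Plin2 at 41.2 and 91.2 CPM (1.15, 0.44 to 1.91). For both genes all WB1P-Myc fractions were above the 3 WB1P fractions with more than 1 fibroblast-like cell. The share of all genes with this pattern was not counted in fibroblast-like cells. The models fill the fibroblast clusters unequally, with 51 and 121 cells in F1, 9 and 41 in F3, 58 and 55 in F4 and 52 and 0 in F5. Fabp4 was at 46.4 and 261 CPM within F1 and at 28.3 and 25.1 CPM within F4, and Plin2 at 74.2 and 97.7 CPM within F1 and 42.4 and 121 CPM within F4.

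Pericyte-like cells of WB1P held Fabp4 (1942 CPM), Lpl (386 CPM) and Cd36 (124 CPM), in part through 1 barcode. A single barcode of fraction 2 carried 69 of the 141 Fabp4, 13 of the 28 Lpl and 8 of the 9 Cd36 UMIs of these 47 cells. The same barcode held 77 UMIs of the adipocyte markers Car3, Retn and Plin1, of which no other kept cell had more than 2, and 1 pericyte marker UMI. Without it, Fabp4 was at 1023 CPM, Lpl at 213 CPM and Cd36 at 14.2 CPM. The 58 pericyte-like cells of WB1P-Myc held Fabp4 at 694 CPM (372 to 948 by fraction), Lpl at 353 CPM and Cd36 at 0.

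In epithelial-like tumor cells Cd9, Lgals3 and Plin2 were lower in WB1P-Myc. Most WB1P cells of this class were in cluster 1 (658 cells) and most WB1P-Myc cells in cluster 5 (1167 cells). Cd9 was at 1546 CPM in WB1P and 255 CPM in WB1P-Myc (-2.60, -2.71 to -2.49), where WB1P fraction 1, with 258 CPM in 60 cells, lay among the WB1P-Myc fractions (207 to 292 CPM). Lgals3 was at 1173 and 421 CPM (-1.48, -1.57 to -1.38) and Plin2 at 119 and 64.2 CPM (-0.89, -1.15 to -0.62), both lower in every WB1P-Myc fraction. Other members were higher in WB1P-Myc. Apoe was at 204 and 374 CPM (0.87, 0.71 to 1.04) and Fabp5 at 584 and 767 CPM (0.40, 0.30 to 0.49), with overlap of the fractions. Lpl was at 7.85 and 24.4 CPM (1.63, 0.85 to 2.50), without overlap. Cd36 and Gpnmb were at 0 in WB1P and at 7.01 and 3.64 CPM in WB1P-Myc. The share of all genes without overlap was not counted in epithelial-like cells, so how common it is there is not known. Schwann-like cells, found in WB1P-Myc alone, held Cd9 at 709 CPM, Fabp5 at 709.8 CPM and Lgals3 at 621 CPM.

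Fabp5 values have to be read with a near-identical copy in mind. The processed pseudogene Gm6166 (chr9:57483963-57484371, plus strand) shares 260 of its 379 stretches of 31 bases with the coding transcripts of Fabp5, and the authors' counting could split reads between both. Gm6166 had 40.5% of the UMIs of the pair in WB1P macrophage-like cells (36.9 to 44.2) and 41.0% in WB1P-Myc (39.1 to 42.8), and between 37.9% and 50% in the endothelial-like, pericyte-like, fibroblast-like, epithelial-like and Schwann-like cells. Adding its UMIs left the log2 ratio of Fabp5 in macrophage-like cells at 0.91 (0.79 to 1.03).

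The genes whose levels ran most like each member were sought over 10 pools of class and model with at least 50 cells, as Pearson correlations of log2(CPM + 10) among 7922 genes. Trem2 ran with Ccr2 (r = 0.996), Mpeg1 and Cd84, and Apoe with Laptm5 (0.996), Ctss and Tyrobp, all leukocyte genes. Among the macrophage-like clusters Trem2 and Ccr2 parted, since Ccr2 was at 582 CPM in L1 and 58.7 CPM in L3, where Trem2 was highest. Plin2 ran with Cd84 (0.964), Rcbtb2 and Cd300a. Fabp4 ran with Gpr116 (0.967), Esam and Ppp1r10, and Cd36 with S1pr1 (0.940), Cd93 and Tbk1. Gpnmb ran with Ckb at 0.886, Lpl with Ap2a2 at 0.961, Fabp5 with Gm6166 at 0.982, Lgals3 with Aup1 at 0.949 and Cd9 with Sp3os at 0.945. The pools of a model share libraries and depth, and the correlations are given as a description of 10 points.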

How the data were processed

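Single cells of 2 tumor models were measured in 4 droplet fractions per model. The authors made raw UMI counts per gene and barcode with dropseq-tools 1.12, and the deposited tables list 1000 barcodes each, from a HiSeq run (used here) and a MiSeq run of the same fractions. The tables of the runs share 59 listed barcodes over all fractions, so the MiSeq values come from almost entirely other barcodes. The submitters' processing notes name mm10 and Scanpy. For the aligner, the name was not given in the sources used here. Barcodes with 450 to 4000 genes and under 20% mitochondrial UMIs were kept. Clusters were made without the 10 members in scanpy 1.11.5 (30 principal components, 20 neighbors, Leiden resolution 0.3, and 0.5 within leukocytes and within fibroblasts) and named from marker lists. UMIs were summed per model and class and given per 1000000 UMIs (CPM), with exact Poisson, Clopper-Pearson and conditional binomial intervals. Each model is 1 sample, so no p-value is given and counts of genes use a 2-fold limit and genes with at least 50 UMIs. Shares were compared after thinning cells to 600 UMIs. PCR copies are removed by the UMIs, and intervals and floors (3 counts) cover counting error only. Doublets were left in the main result, and an alternative removed those called by Scrublet.

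The members and the gene lists were chosen with earlier results of these data known. Genes named beside the members came from these lists or, for likeness, were the genes of highest Pearson correlation with a member. The alternatives without cluster L1, with clusters weighted alike, without the 5 cells with most UMIs, and with Fabp5 and Gm6166 summed, and the look at mast cell and adipocyte markers in single barcodes, were chosen after seeing the data. The ratio was tested on simulated data. Scaling factors came from edgeR 4.0.16 and DESeq2 1.42.0 in R 4.3.3. Some genes of the lists are not reported here.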

Additional observations from a re-analysis of the deposited data

Results flagged for a closer look

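Lgals3 in epithelial-like cells of WB1P-Myc stood at 607 CPM in fraction 3, against 356, 328 and 374 CPM in the other fractions. In Schwann-like cells of WB1P-Myc it stood at 436 CPM in fraction 4, against 675, 664 and 693 CPM. Both fractions lay far from the other 3 of their group, which was found in 2 of 56 groups checked, and chance alone gives about 1 in 20. Fabp5 was higher in WB1P-Myc in macrophage-like cells (log2 ratio 0.90) and lower in pericyte-like cells (-1.54), with no overlap of fractions in either class when WB1P fraction 1, with 1 pericyte-like cell, is left out. Plin2 was higher in macrophage-like cells (0.89) and in fibroblast-like cells (1.15) and lower in epithelial-like cells (-0.89), again with no overlap when the 1 fibroblast-like cell of WB1P fraction 1 is left out. The share of all genes without overlap was not counted in pericyte-like, fibroblast-like and epithelial-like cells. These differences between classes were not tested.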

How the results depend on the processing

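No paired analysis was possible because each model is 1 sample and the fraction numbers tie no fraction of one model to one of the other. In the MiSeq run (100 and 97 macrophage-like cells) the log2 ratios were 1.33 for Trem2, 0.58 for Apoe, 1.31 for Plin2 and, with the sign turned, -0.14 for Fabp4 and 0.38 for Lgals3, 13% of WB1P and 31.6% of WB1P-Myc cells held at least 4 members, and 26 genes were at least 2-fold higher and 48 lower. With clusters weighted alike the ratios were 2.41 for Cd36, 0.064 for Trem2, 0.46 for Fabp4, 0.59 for Plin2 and, with the sign turned, 0.16 for Cd9 and -0.062 for Fabp5. Cd36 was at 3.59 with barcodes of at least 200 genes and at 6.74 without the 5 cells with most UMIs. The shares with at least 4 members were 6.21% and 15.3% at 400 UMIs, 27.2% and 45.8% at 1000 UMIs, and 19.5% and 32.0% without cluster L1. The WB1P share was 17.1% without cells with tumor markers. Counts of genes at least 2-fold higher and lower were 1241 and 642 with a minimum of 10 UMIs, and 1477 and 935 with none. The number of genes compared changes with the run and with the minimum, so these counts are not shares. Leaving out 1 fraction at a time gave -0.33 to 0.0017 for Lgals3, whose sign turned without WB1P fraction 2, and -0.19 to 0.0051 for Cd9, whose sign turned without WB1P fraction 3. It gave 3.95 (without WB1P fraction 3) to 5.12 (without WB1P fraction 2) for Cd36, 2.97 (without WB1P-Myc fraction 3) to 4.15 (without WB1P fraction 2) for Gpnmb and 1.13 (without WB1P-Myc fraction 4) to 2.53 (without WB1P fraction 3) for Fabp4. The cause of these changes was not tested. WB1P macrophage-like cells yielded 6 Cd36, 8 Fabp4 and 10 Gpnmb UMIs, which limits those ratios.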
